A study of Mus musculus with 3 samples.

Results

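The genes described here are 7 acute phase and metal-binding genes, taken by symbol from the 29994 genes counted in each library. They are Mt1, Mt2, Slc39a14, Serpina3n, Lcn2, Saa3 and Hp, and all 7 had at least 1 unique molecular identifier (UMI, a tag that marks 1 captured RNA molecule) in each of the 3 libraries. The set was selected on values of these same libraries, with the levels of its genes in TAC+ART, TAC and Sham already known. Those differences are therefore given as descriptions, with no test.

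The study profiled ventricular heart tissue of C57B6 mice, stored frozen and run on the 10x Genomics droplet platform. The TAC+ART group had TAC and received artesunate, an antimalarial derivative of artemisinin. The TAC group had TAC and received vehicle, and the Sham group was sham-operated and received vehicle. TAC, transverse aortic constriction, is a surgical narrowing of the aorta that overloads the left ventricle. Each group was 1 library made from the ventricles of 3 hearts pooled together. The sources used here give no dose, treatment time or age. With 1 library per group there is no spread between samples, so no p-value is given, and every interval below is a 95% interval that covers counting error only.

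Acute phase proteins are secreted in large amounts during inflammation, chiefly by the liver, after interleukin-6 family cytokines act through JAK and STAT3 and after NF-kB and C/EBP factors are activated. Metallothioneins are small cysteine-rich proteins that bind zinc and copper, and their genes respond to metals through the factor MTF1, to glucocorticoids and to the same cytokines. Slc39a14 encodes ZIP14, a zinc, iron and manganese importer of the plasma membrane that belongs to the same response in liver, where incoming zinc is held by metallothionein.

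All positions are on the mm10 assembly with GENCODE M21 genes. Mt2 (chr8:94172664-94173568, forward strand) and Mt1 (chr8:94179082-94180327, forward strand) lie side by side, 5513 bases apart. Hp lies on the same chromosome at chr8:109575128-109579172, Lcn2 at chr2:32384633-32388252, Saa3 at chr7:46711998-46715700 and Slc39a14 at chr14:70303469-70351425, these 4 on the reverse strand. Serpina3n lies at chr12:104406729-104414329 on the forward strand. RefSeq promoter windows (GRCm38.p6, 250 bases before to 50 after the start) were matched for 5 of the 7 members by symbol. The 250 bases before the start are shown, 5′ to 3′ on the gene's strand, for the 3 members with the most UMIs among them, because the levels of these genes in TAC stood above both other libraries in each class. Capitals mark motif matches on either strand.
Mt1: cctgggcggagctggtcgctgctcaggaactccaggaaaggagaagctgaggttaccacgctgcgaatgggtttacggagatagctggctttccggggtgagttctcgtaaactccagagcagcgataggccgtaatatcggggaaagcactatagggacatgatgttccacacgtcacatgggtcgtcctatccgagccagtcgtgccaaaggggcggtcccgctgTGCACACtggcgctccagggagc
Mt2: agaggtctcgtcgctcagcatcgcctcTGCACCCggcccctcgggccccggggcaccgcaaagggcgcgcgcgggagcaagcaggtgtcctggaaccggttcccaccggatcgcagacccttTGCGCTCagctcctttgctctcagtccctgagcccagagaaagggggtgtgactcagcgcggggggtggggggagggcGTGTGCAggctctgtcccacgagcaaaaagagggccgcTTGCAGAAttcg
Serpina3n: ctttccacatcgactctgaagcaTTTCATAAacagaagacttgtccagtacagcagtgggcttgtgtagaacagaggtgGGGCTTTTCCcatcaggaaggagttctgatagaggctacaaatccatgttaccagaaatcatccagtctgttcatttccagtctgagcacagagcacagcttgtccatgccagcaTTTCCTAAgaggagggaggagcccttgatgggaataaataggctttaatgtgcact
These are chr8:94178839-94179088, chr8:94172368-94172617 and chr12:104406458-104406707, all forward strand. The core of the metal response element, TGCACNC or TGCGCNC, was found 3 times in the Mt1 window and 4 times in the Mt2 window. Of these, 1 and 3 lie in the bases shown. It was not found in the Serpina3n, Lcn2 or Saa3 windows, and 25.7% of all 32851 windows hold it at least 1 time, 1.97% at least 3 times and 0.517% at least 4 times. The Serpina3n window held an NF-kB motif (GGG, any 2 bases, then TTTCC), which is in 1.63% of windows, and 2 copies of TTNNGNAA, a C/EBP motif, which is in 40.7% of windows. That C/EBP motif was found 4 times in the Saa3 window, 1 time each in the Mt2 and Lcn2 windows, and not in the Mt1 window, and 1.16% of windows hold it at least 4 times. TTCNNNGAA, a STAT motif, was found in none of the 5 windows and is in 8.30% of all windows. The motifs do not overlap in the bases shown, and a match is a run of letters, not a binding site.

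The libraries held 6856 barcodes in TAC+ART, 7413 in TAC and 3752 in Sham, with 33364667, 37658150 and 17710689 UMIs in that order. Barcodes were placed in classes by a gate on marker genes, those with no clear class were left out, and levels are UMIs summed over the class and scaled to 1000000 UMIs of that class (CPM). Fibroblast-like cells numbered 1832 in TAC+ART, 1492 in TAC and 1020 in Sham, and cardiomyocyte-like cells 520, 432 and 344. Macrophage-like cells numbered 984, 1346 and 311 and lymphatic-like cells 154, 245 and 73, in the same order. Every marker of its own list was detected in each of the 7 classes and libraries used, and the summed own markers ranged from 9336 CPM in endothelial-like cells of TAC to 58294 CPM in cardiomyocyte-like cells of TAC+ART. Barcode sequences shared with another library numbered 47, 47 and 40. The median cardiomyocyte-like barcode held 4229 UMIs in TAC+ART, 3142 in TAC and 7116.5 in Sham.

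In most classes Mt1, Mt2, Serpina3n and Lcn2 were highest in the TAC library, and TAC+ART lay between TAC and Sham or near Sham. Mt1 was highest in cardiomyocyte-like cells in every library, and fibroblast-like cells stood next to them only in TAC. Serpina3n was highest in fibroblast- and lymphatic-like cells, and Lcn2 in lymphatic-like cells. The Slc39a14 ratio of TAC over Sham passed 2-fold in fibroblast-like cells and was under 2-fold in the other 6 classes. The intervals do not separate these classes fully. On the log2 scale that of fibroblast-like cells (0.86 to 1.30) reached below 2-fold. Those of lymphatic-like (0.07 to 1.60) and endocardial-like cells (-0.67 to 1.12) reached above it. Saa3 was at the edge of detection in all 3 libraries.

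**Figure D1:**
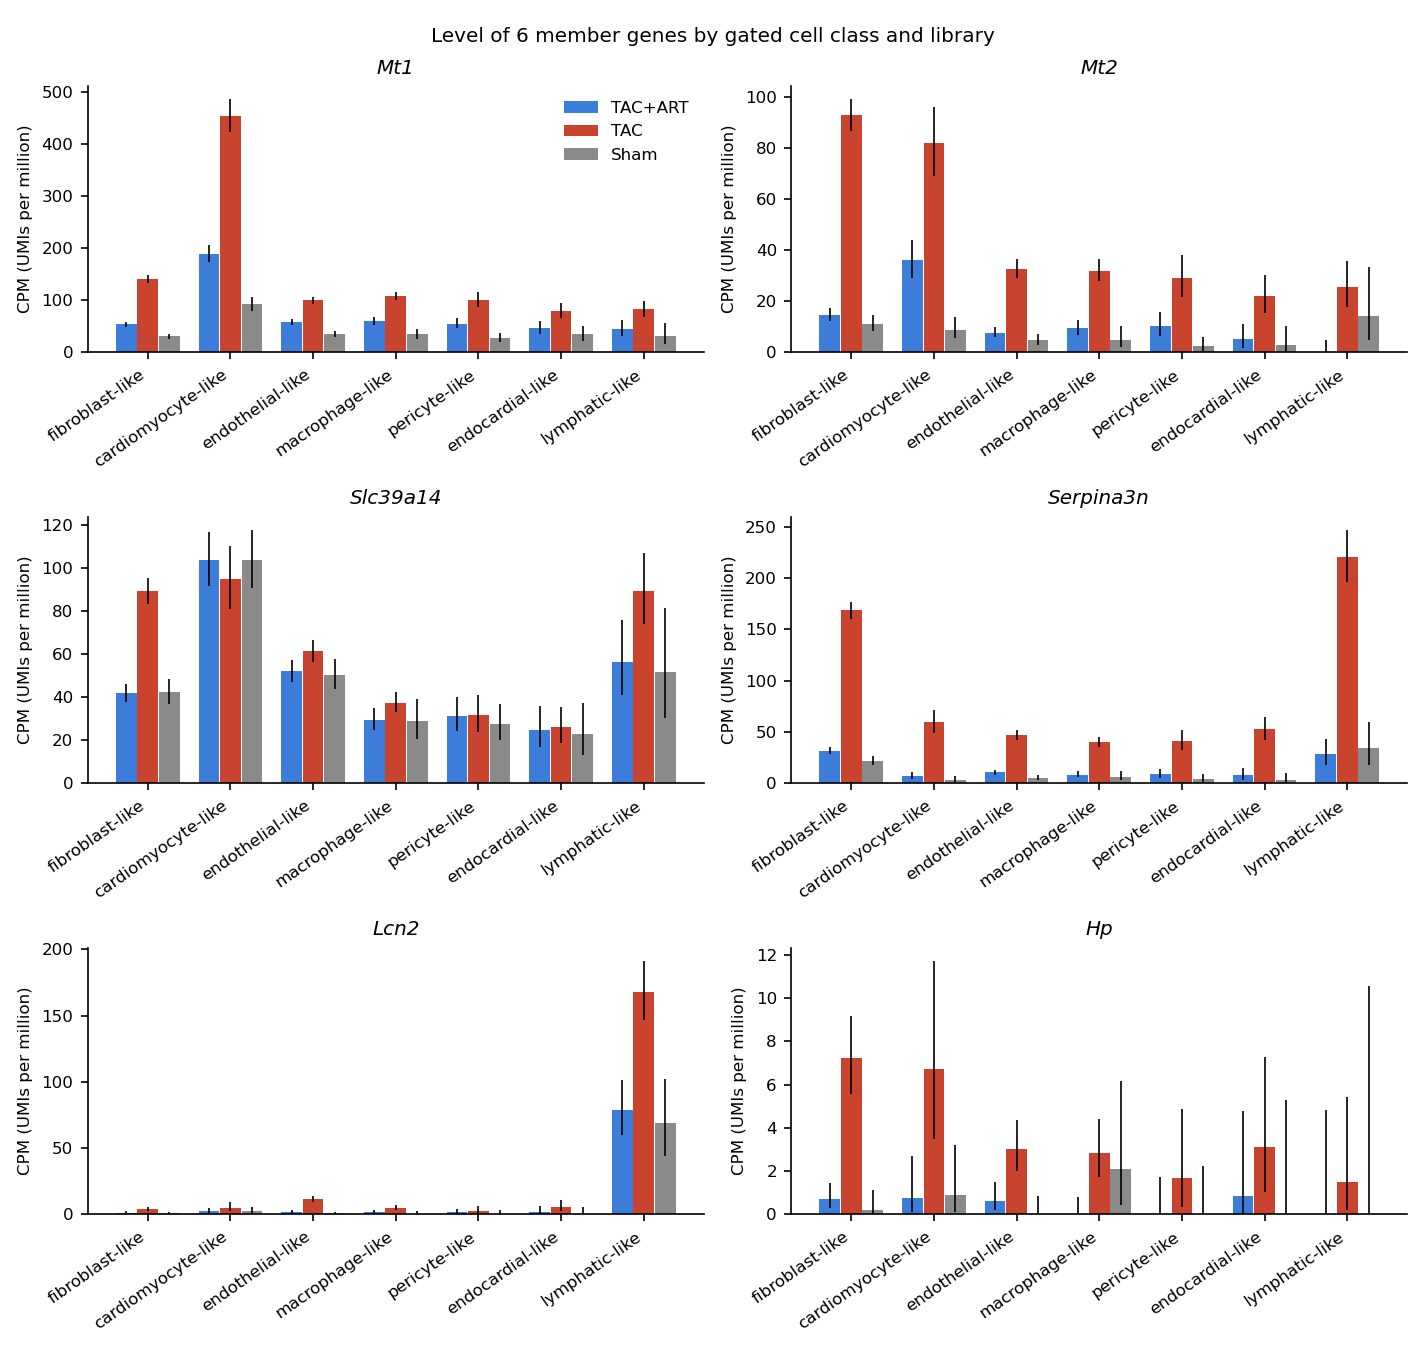
Level of 6 members in 7 marker-gated classes, as CPM, in TAC+ART (blue), TAC (red) and Sham (grey); bars are the value of 1 library and lines are exact Poisson 95% intervals. Mt1 is tallest in cardiomyocyte-like cells and Lcn2 in lymphatic-like cells, and the TAC bar is the tallest in each class for Mt1, Mt2, Serpina3n and Lcn2.

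Mt1, the main inducible metallothionein together with Mt2, had 53.9 CPM in TAC+ART, 141 CPM in TAC and 30.8 CPM in Sham in fibroblast-like cells. Its log2 ratio was 2.19 for TAC over Sham (1.96 to 2.45) and -1.39 for TAC+ART over TAC (-1.54 to -1.24). The TAC library stood above both others, and the TAC+ART library stayed above Sham by 0.80 (0.55 to 1.08). In cardiomyocyte-like cells Mt1 had 189 CPM in TAC+ART, 454 CPM in TAC and 92.3 CPM in Sham, the highest of the 7 classes within every library. There the log2 ratio was 2.30 for TAC over Sham (2.08 to 2.52) and -1.27 for TAC+ART over TAC (-1.43 to -1.10), and TAC+ART stayed 1.03 above Sham (0.80 to 1.27). In TAC the next class after cardiomyocyte-like cells was fibroblast-like cells, whose interval did not overlap that of the macrophage-like cells at 108 CPM. The other 4 classes ranged from 78.8 CPM in endocardial-like cells to 101 CPM in pericyte-like cells in TAC, with neighbours in that order overlapping. In Sham the 6 classes other than cardiomyocyte-like cells lay between 28.3 and 35.3 CPM and could not be ordered by their intervals.

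Mt2 had 14.7 CPM in TAC+ART, 92.7 CPM in TAC and 11.2 CPM in Sham in fibroblast-like cells. The log2 ratio was 3.04 for TAC over Sham (2.66 to 3.47) and -2.65 for TAC+ART over TAC (-2.92 to -2.40), and TAC+ART over Sham was 0.39 with an interval that includes 0 (-0.06 to 0.86). Among genes with at least 100 UMIs in both libraries together, Mt2 ranked 30 from the top of 11140 for TAC over Sham and 8 from the bottom of 12049 for TAC+ART over TAC. Mt2 was chosen with these contrasts known, so the ranks are only descriptions. In cardiomyocyte-like cells Mt2 had 36.1 CPM in TAC+ART, 81.7 CPM in TAC and 8.88 CPM in Sham. The log2 ratio there was 3.17 for TAC over Sham (2.52 to 3.96) and -1.18 for TAC+ART over TAC (-1.57 to -0.80), so TAC+ART kept a log2 difference of 2.0 from Sham (1.32 to 2.80). Mt2 was thus near its Sham level in fibroblast-like cells of TAC+ART but not in cardiomyocyte-like cells; the difference between these classes was not tested. In lymphatic-like cells Mt2 had 0 UMIs in TAC+ART, where 3 UMIs would be 3.93 CPM, against 34 UMIs (25.5 CPM) in TAC and 5 UMIs (14.3 CPM) in Sham.

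The cardiomyocyte-like values rest on barcodes of unequal depth. In barcodes of at most 8000 UMIs the TAC+ART over TAC ratios of Mt1 and Mt2 were -0.99 and -0.75 on the log2 scale, so that 1 member in place of 3 was lower by 2-fold or more. For TAC over Sham, Mt1 was 1.98 and Mt2 2.45 in those barcodes. Both lay below the intervals found with all barcodes, 2.08 to 2.52 for Mt1 and 2.52 to 3.96 for Mt2.

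Within the metallothionein pair, the share of Mt2 also differed between libraries and classes. In fibroblast-like cells Mt2 made up 21.4% of Mt1 and Mt2 UMIs in TAC+ART (18.4 to 24.7), 39.6% in TAC (37.5 to 41.7) and 26.7% in Sham (20.8 to 33.2). In cardiomyocyte-like cells the shares were 16.1% in TAC+ART (13.2 to 19.2), 15.3% in TAC (13.04 to 17.7) and 8.77% in Sham (5.44 to 13.2). Fibroblast-like cells of TAC stood above both other libraries. In cardiomyocyte-like cells the TAC+ART and TAC shares were close and Sham was the lowest. The Sham interval met the other intervals only at its upper end, and this difference was not tested. In endothelial-like cells the shares were 11.9% in TAC+ART, 24.5% in TAC and 11.7% in Sham. Mt1 and Mt2 are similar short genes, and the sources used here do not say how reads that match both were counted, so the shares are uncertain to that extent.

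**Figure D2:**
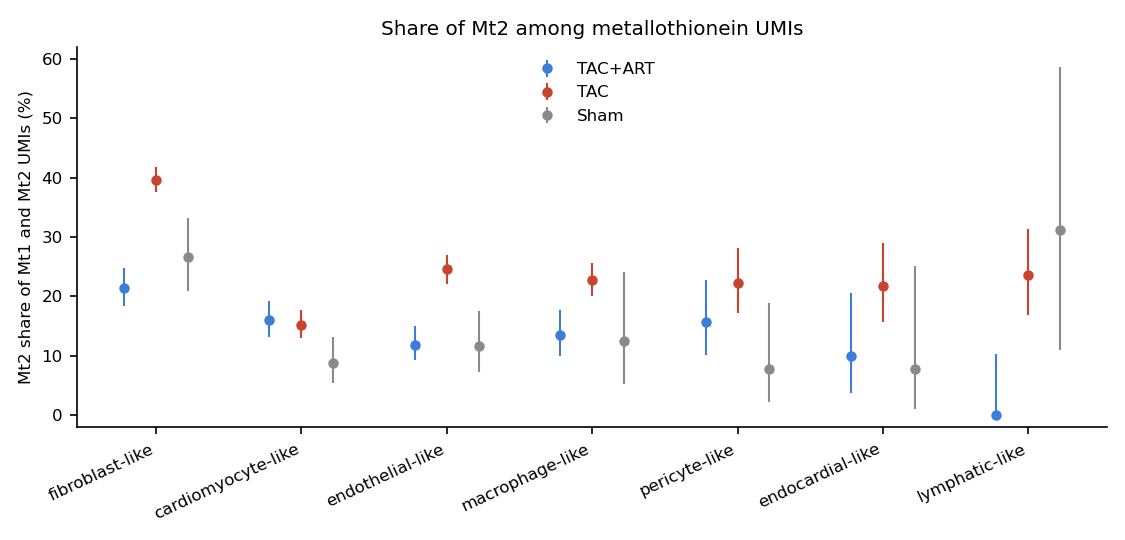
Share of Mt2 among Mt1 and Mt2 UMIs (percent) by class in TAC+ART, TAC and Sham; points are 1 library each and lines are exact binomial 95% intervals. Fibroblast-like cells of TAC reach 39.6%, and the cardiomyocyte-like cells of TAC+ART and TAC lie at 16.1% and 15.3%.

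Slc39a14, the metal importer, had 41.8 CPM in TAC+ART, 89.0 CPM in TAC and 42.2 CPM in Sham in fibroblast-like cells. Its log2 ratio was 1.08 for TAC over Sham (0.86 to 1.30), -1.09 for TAC+ART over TAC (-1.26 to -0.92) and -0.01 for TAC+ART over Sham (-0.26 to 0.23). In cardiomyocyte-like cells it had 103 CPM in TAC+ART, 94.6 CPM in TAC and 103 CPM in Sham, with log2 ratios of -0.13 for TAC over Sham (-0.42 to 0.16) and 0.13 for TAC+ART over TAC (-0.15 to 0.41). The 3 cardiomyocyte-like libraries overlapped, although after thinning every barcode to 1000 UMIs these ratios were -0.90 and 0.84, from 57 and 73 UMIs. In endothelial-like cells Slc39a14 had 51.9, 61.3 and 50.4 CPM in TAC+ART, TAC and Sham. In lymphatic-like cells it had 56.3, 89.2 and 51.5 CPM in the same order, with a log2 ratio of 0.76 for TAC over Sham (0.07 to 1.60). Macrophage-, pericyte- and endocardial-like cells lay between 22.9 and 37.4 CPM in all libraries. In TAC+ART and Sham cardiomyocyte-like cells had the highest level of the 7 classes, while in TAC the cardiomyocyte-, lymphatic- and fibroblast-like levels overlapped.

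Serpina3n, a secreted inhibitor of serine proteases and a mouse counterpart of human alpha-1-antichymotrypsin, had 31.9 CPM in TAC+ART, 169 CPM in TAC and 22.2 CPM in Sham in fibroblast-like cells. Its log2 ratio was 2.92 for TAC over Sham (2.65 to 3.22), -2.40 for TAC+ART over TAC (-2.58 to -2.23) and 0.52 for TAC+ART over Sham (0.21 to 0.85). The TAC level stood far above the other libraries, which were close to each other. A Serpina3n UMI was found in 233 of 1832 fibroblast-like cells (12.7%) in TAC+ART, 725 of 1492 (48.6%) in TAC and 87 of 1020 (8.53%) in Sham. After thinning to 1000 UMIs the shares were 2.78% in TAC+ART, 13.3% in TAC and 2.06% in Sham, and those of pericyte-like cells were 0.875%, 3.35% and 0.794%. The median fibroblast-like barcode held 5283.5 UMIs in TAC+ART, 6215 in TAC and 4634.5 in Sham, and the median pericyte-like one 4310, 4798.5 and 4055.5. The top 1% of TAC fibroblast-like cells held 11.8% of the Serpina3n UMIs, so the UMIs were spread over many cells. Serpina3n has near relatives in a cluster of mouse genes, and the handling of reads shared with them is unknown.

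The class with the most Serpina3n in TAC was the lymphatic-like cells. They had 28.8 CPM in TAC+ART, 220 CPM in TAC and 34.3 CPM in Sham, from 22, 294 and 12 UMIs. The log2 ratio was 2.63 for TAC over Sham (1.86 to 3.65), -2.91 for TAC+ART over TAC (-3.63 to -2.31) and -0.28 for TAC+ART over Sham (-1.33 to 0.90). The TAC interval did not overlap that of fibroblast-like cells of TAC, while in TAC+ART and Sham both classes overlapped. In the remaining 5 classes Serpina3n lay between 6.77 and 10.8 CPM in TAC+ART, between 39.8 and 59.4 CPM in TAC and between 2.87 and 6.35 CPM in Sham.

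Lcn2 encodes lipocalin 2, a secreted protein that binds bacterial siderophores and is known best from neutrophil granules and injured epithelium. In these hearts lymphatic-like cells had its highest level in every library. They had 78.6 CPM in TAC+ART, 168 CPM in TAC and 68.6 CPM in Sham, from 60, 224 and 24 UMIs. Lymphatic-like cells were 2.38%, 3.51% and 2.01% of the cells of TAC+ART, TAC and Sham but carried 51.3%, 49.8% and 63.2% of the Lcn2 UMIs. The log2 ratio in these cells was 1.26 for TAC over Sham (0.68 to 1.96), -1.09 for TAC+ART over TAC (-1.53 to -0.68) and 0.18 for TAC+ART over Sham (-0.51 to 0.94). A Lcn2 UMI was found in 29.9% of lymphatic-like cells in TAC+ART, 53.9% in TAC and 27.4% in Sham, and in 0.656%, 1.40% and 0.265% of pericyte-like cells. After thinning to 1000 UMIs the lymphatic-like shares were 7.79%, 11.02% and 5.48%, and those of pericyte-like cells 0.219%, 0.279% and 0%. Median depths of lymphatic-like cells were 4609.5, 5401 and 4547 UMIs.

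The lymphatic-like cells with Lcn2 carried the defining lymphatic genes. Prox1, the factor that sets lymphatic endothelial identity, had 981 CPM in cells with Lcn2 and 1126 CPM in cells without it in TAC+ART, 1258 and 1027 CPM in TAC, and 1042 and 1129 CPM in Sham. The neutrophil list summed to 3.93 CPM in lymphatic-like cells of TAC+ART, 37.5 CPM in TAC and 5.72 CPM in Sham, with 3, 5 and 1 of its 10 genes detected. The neutrophil granule genes Camp and Ngp were at 0 in lymphatic-like cells of all 3 libraries, and Ltf had 1 UMI, in TAC+ART. S100a8 had 0, 16 and 0 UMIs there in TAC+ART, TAC and Sham and S100a9 had 1, 17 and 2, so both were highest in TAC, as Lcn2 was. In TAC the neutrophil list summed to 62.7 CPM in cardiomyocyte-like and 120 CPM in macrophage-like cells, where Lcn2 had 5.04 and 5.07 CPM. It summed to 15.9 CPM in fibroblast-like, 23.1 CPM in endothelial-like and 24.5 CPM in pericyte-like cells of TAC. The part of neutrophil RNA in the Lcn2 values was not tested.

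Outside lymphatic-like cells Lcn2 was rare. Endothelial-like cells had 17 UMIs (2.16 CPM) in TAC+ART, 107 UMIs (11.5 CPM) in TAC and 3 UMIs (0.70 CPM) in Sham, with a log2 ratio of 3.83 for TAC over Sham (2.46 to 6.34) and -2.38 for TAC+ART over TAC (-3.25 to -1.67). In TAC 1 endothelial-like cell held 12 of the 107 UMIs, and the top 1% of cells held 55.1%. Fibroblast-like cells had 13, 36 and 4 UMIs in TAC+ART, TAC and Sham. Over all cells the log2 ratio of Lcn2 for TAC over Sham was 2.53 as counted and 2.12 with the TAC classes weighted to the class makeup of Sham, so the ratio was smaller at equal class makeup.

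Hp encodes haptoglobin, the plasma protein that captures free haemoglobin. It had 20 UMIs in all cells of TAC+ART, 148 in TAC and 9 in Sham. Fibroblast-like cells held 7, 66 and 1 of them, which is 0.70 CPM in TAC+ART, 7.22 CPM in TAC and 0.20 CPM in Sham. Their log2 ratio was 4.6 for TAC over Sham (2.65 to 10.50) and -3.28 for TAC+ART over TAC (-4.74 to -2.24). In TAC these UMIs came from 37 cells, and 40 of the 66 were in the 231 fibroblast-like cells of an unsupervised cluster led by C7, Tenm3 and Gfpt2, at 24.8 CPM (17.7 to 33.8). The 342 TAC+ART and 138 Sham fibroblast-like cells of that cluster had 1 and 0 Hp UMIs. The hepatocyte list summed to 5.20, 19.0 and 5.80 CPM in fibroblast-like cells of TAC+ART, TAC and Sham, so it was also highest in TAC, where Apoa1 and Ttr were at 0 and 4 of 6 genes were detected. Its part in the Hp value was not tested. Endothelial-like cells had 5 and 28 Hp UMIs in TAC+ART and TAC and 0 in Sham, and the lower end of the log2 interval for TAC over Sham was 1.71.

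Saa3, the serum amyloid A isoform made outside the liver in mice, had 9 UMIs in TAC+ART, 11 in TAC and 10 in Sham over all cells. Its log2 ratio had an interval of -1.56 to 1.30 for TAC+ART over TAC. That for TAC over Sham, -2.28 to 0.49, includes 0 and excludes a 2-fold higher level in TAC. No difference of Saa3 was detectable at this depth. The smaller gated classes (B-like, T or NK-like, epicardial-like and smooth muscle-like cells) held at most 19 UMIs of any member in a library.

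The same C7-led cluster had fibroblast-like cells of every library. The gene for periostin, Postn, differed widely within it, at 408 CPM in TAC+ART, 1142 CPM in TAC and 164 CPM in Sham. Serpina3n had 45.3 CPM in its TAC+ART cells, 208 CPM in TAC cells and 45.6 CPM in Sham cells. Mt2 had 17.1 CPM in TAC+ART, 84.4 CPM in TAC and 15.6 CPM in Sham. Slc39a14 had 44.8 CPM in TAC+ART, 98.0 CPM in TAC and 42.0 CPM in Sham. For each of these 3 genes the intervals of TAC+ART and Sham overlapped and that of TAC lay above both. Different clusters held most fibroblast-like cells of each library. A cluster led by Kcnip1 had 1014 of them in TAC+ART, 56 in TAC and 87 in Sham, one led by Itgbl1 had 244 in TAC+ART and 1077 in TAC, and one led by Ccbe1 had 151 in TAC+ART and 763 in Sham. In the Itgbl1-led cluster Serpina3n was 37.7 CPM in TAC+ART and 149 CPM in TAC. A shallow cluster led by Edil3, Ltbp2 and Col1a1 had 60 fibroblast-like cells in TAC+ART and 105 in TAC, with median depths of 1867 and 1909 UMIs. Serpina3n was highest there, at 65.5 CPM in TAC+ART (28.3 to 129) and 707 CPM in TAC (601 to 826). Mt2 had 49.1 and 262 CPM in those cells. In the Kcnip1-led cluster Slc39a14 was 41.7 CPM in TAC+ART (36.4 to 47.5), 59.7 CPM in TAC (35.9 to 93.2) and 60.3 CPM in Sham (38.3 to 90.5), so the 2-fold difference between TAC and Sham of the whole class was not seen there. The members were among the genes used for clustering, so these values are descriptions.

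Detection of 2 members in the same cell was counted in thinned cells. In thinned TAC fibroblast-like cells, Mt2 was found in 24 of 195 cells with Mt1 (12.3%, 8.05 to 17.8) and in 83 of 1296 cells without it (6.40%). Serpina3n was found in 22 of 107 cells with Mt2 (20.6%, 13.4 to 29.5) and in 177 of 1384 cells without it (12.8%). Mt2 was found in 66 of 679 cells with Postn (9.72%) and in 41 of 812 cells without it (5.05%). At 1000 UMIs per cell such shares are sparse and are given as a description.

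Counting members with at least 20 UMIs in both libraries together, 6 of 6 were 2-fold higher in TAC than in Sham in fibroblast-like cells, against 8.42% of all genes tested, and 0 were lower, against 6.87%. For TAC+ART over TAC 6 of 6 were 2-fold lower, against 2.59% of genes, and 0 were higher, against 4.18%. The contrasts had a part in choosing the members, and Lcn2 and Hp reached 20 UMIs only through TAC, so nothing is read from these counts. In cardiomyocyte-like cells Mt1, Mt2 and Serpina3n, 3 of 4, were higher in TAC over Sham (21.2% of genes) and the same 3 were lower in TAC+ART over TAC (7.09%). In endothelial-like cells 5 of 6 were higher (4.68%) and 4 of 6 lower (2.21%), in macrophage-like cells 4 of 6 were higher (5.89%) and 3 of 5 lower (2.5%), and in pericyte-like cells 3 of 4 were higher (5.14%) and 2 of 4 lower (2.14%). In endocardial-like cells 3 of 4 were higher (5.54%) and 2 of 4 lower (2.87%), and in lymphatic-like cells 3 of 5 were higher (7.3%) and 3 of 5 lower (3.32%). Here too the contrasts had a part in the choice, and some members reached 20 UMIs only through TAC. In TAC and Sham, Hp had 28 and 0 UMIs in endothelial-like cells and Lcn2 34 and 0 in macrophage-like cells. Mt2 had 35 and 2 in endocardial-like cells. Nothing is read from these counts either. In fibroblast-like cells the median log2 ratio of the counted members was 2.56 for TAC over Sham and -1.98 for TAC+ART over TAC. For all genes tested it was 0.01 and -0.02. The medians of the members rest on the same choice, so nothing is read from them.

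**Figure D3:**
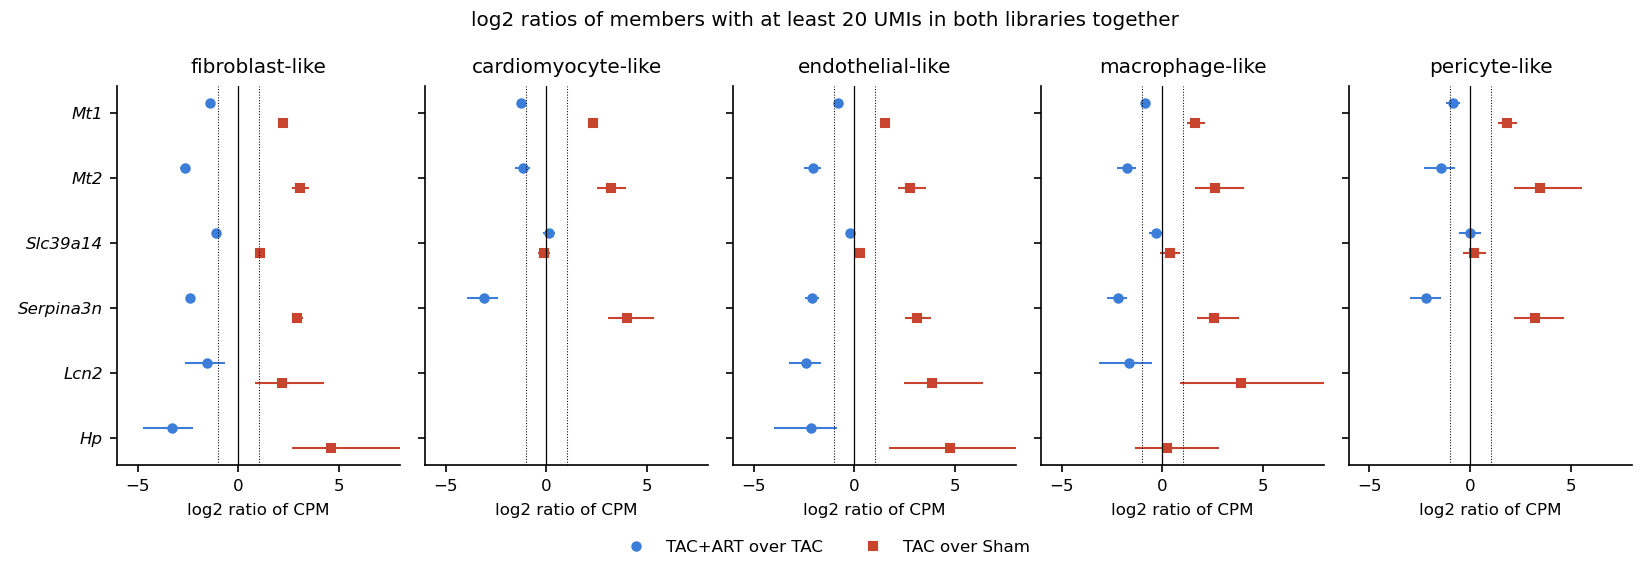
log2 ratios of CPM for members with at least 20 UMIs in both libraries together, in 5 classes; blue circles are TAC+ART over TAC, red squares are TAC over Sham, lines are exact 95% intervals for counting error (cut off at the frame), dotted lines mark 2-fold. Slc39a14 lies past 2-fold in fibroblast-like cells and near 0 in cardiomyocyte-like cells, where its ratios are -0.13 and 0.13.

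Markers of fibroblasts and cardiomyocytes were present in every class. The fibroblast list summed to 14103, 12620 and 10740 CPM in fibroblast-like cells of TAC+ART, TAC and Sham. In endothelial-like cells it summed to 3211, 2685 and 1131 CPM, where Serpina3n had 10.8, 46.9 and 5.37 CPM. Between libraries the list was thus highest in TAC+ART and Serpina3n in TAC. In TAC, Serpina3n had 13.4 UMIs per 1000 fibroblast-marker UMIs in fibroblast-like cells and 13.2 in pericyte-like, 16.8 in macrophage-like, 17.2 in cardiomyocyte-like, 17.5 in endothelial-like and 19.4 in endocardial-like cells. The lymphatic-like cells stood apart at 99.0. Held at the ratio of fibroblast-like cells, the fibroblast markers carried 77.5% of the Serpina3n level in cardiomyocyte-like cells of TAC and 76.5% in endothelial-like cells, but 13.5% in lymphatic-like cells. In Sham these shares were 50.7% in cardiomyocyte-like cells, 43.5% in endothelial-like cells and 6.76% in lymphatic-like cells. In pericyte-like cells, the shares were 93.7% in TAC+ART, 101% in TAC and 101% in Sham.

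Mt1 was treated likewise with both marker lists. The mix of fibroblast-like and cardiomyocyte-like RNA that gives both marker sums in endothelial-like cells was 20.7% and 10.3% of their RNA in TAC+ART, 18.3% and 10.9% in TAC, and 9.78% and 9.23% in Sham. Above that mix endothelial-like cells had 27.0 CPM of Mt1 in TAC+ART, 24.3 CPM in TAC and 23.7 CPM in Sham. These 3 values were close, and no interval was computed for them. Macrophage-like cells had 35.4, 46.3 and 24.7 CPM above their mix in TAC+ART, TAC and Sham. For Slc39a14 the lymphatic-like cells had 40.5, 67.6 and 40.6 CPM above it. In fibroblast-like cells, cardiomyocyte markers at the Mt1 ratio of cardiomyocyte-like cells carried 29.3%, 26.4% and 21.3% of the Mt1 level in TAC+ART, TAC and Sham. These figures take all markers of the other class as RNA from outside the cell, which was not tested.

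**Figure D4:**
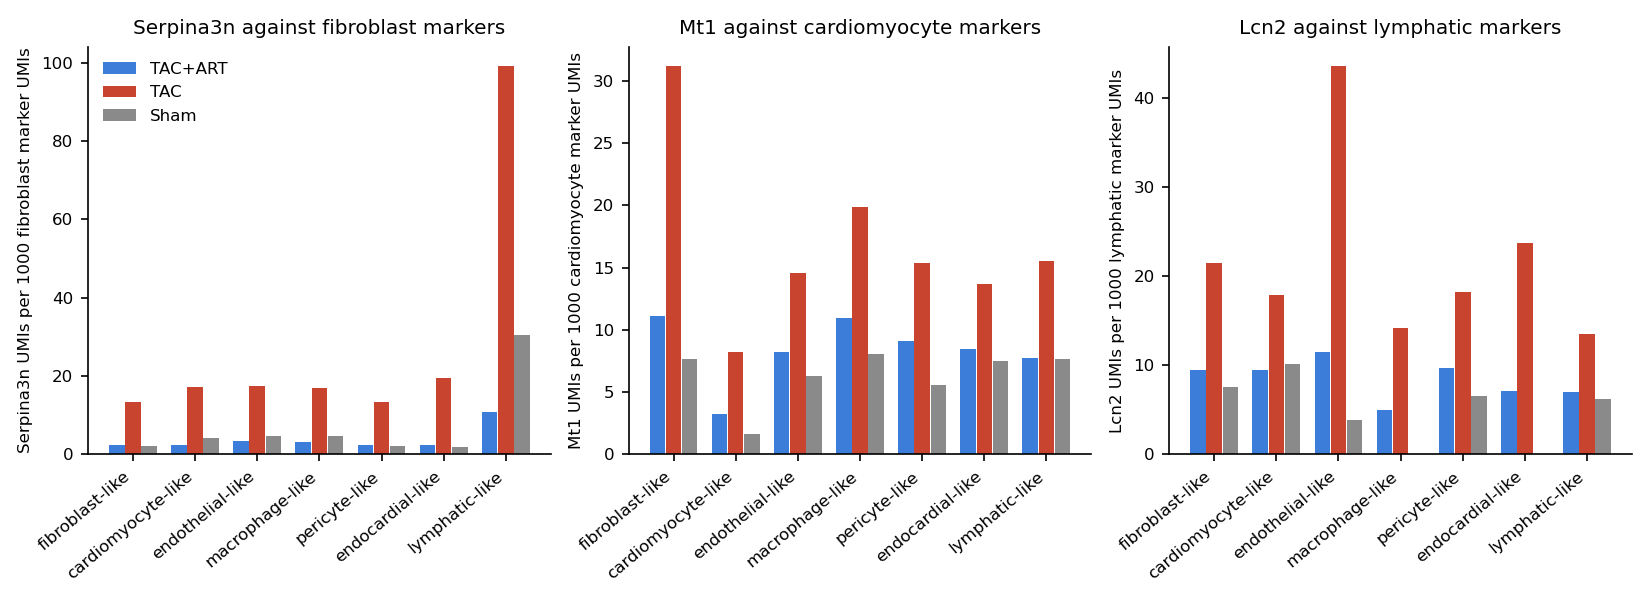
Member UMIs per 1000 marker UMIs of a class where the member is high, in 7 classes of TAC+ART (blue), TAC (red) and Sham (grey): Serpina3n against fibroblast markers, Mt1 against cardiomyocyte markers and Lcn2 against lymphatic markers. Serpina3n in TAC lies between 13.2 and 19.4 in 6 classes and at 99.0 in lymphatic-like cells, and Lcn2 in TAC is at 43.6 in endothelial-like cells and 13.5 in lymphatic-like cells.

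Other genes of the acute phase response were counted from a list in fibroblast-like cells. This list and those below were chosen with earlier results of these data known, so their counts and medians are descriptions. Of 36 genes, 9 had at least 100 UMIs in TAC and Sham together, and 7 of these were higher by 1.5-fold or more in TAC and 0 lower, where 16.8% and 11.2% of all genes were higher and lower. Timp1, an inhibitor of matrix metalloproteases, had 119 CPM in TAC and 7.79 CPM in Sham (log2 3.91), and C3, the central complement protein, 567 and 171 CPM (1.73). The lowest ratios were those of Steap4, a metalloreductase (0.35), and Tfrc, the transferrin receptor (0.22). For TAC+ART over TAC, 10 genes had 100 UMIs, and 0 were higher and 6 lower by 1.5-fold or more, where 6.95% and 6.47% of genes were. Timp1 had -2.76 and C3 -0.90, while Cp, the copper ferroxidase ceruloplasmin, had -0.18 and Tfrc -0.02. The list median was 1.37 for TAC over Sham and -0.63 for TAC+ART over TAC, beside 0.03 and -0.05 over all genes.

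Of all genes with at least 100 UMIs in the pair of libraries, 16.8% were higher and 11.2% lower by 1.5-fold in TAC over Sham in fibroblast-like cells. In TAC+ART over TAC 6.95% were higher and 6.47% lower. The list counts that follow are set beside these shares as descriptions. Of 23 zinc and metal handling genes measured, 4 were higher and 1 lower in TAC over Sham, and of 24 measured, 2 were higher and 1 lower in TAC+ART over TAC, which is near those shares. Slc39a1, another zinc importer, had 44.6 CPM in TAC and 20.2 CPM in Sham (log2 1.14), and Gclm, a subunit of the glutathione synthesis enzyme, 33.8 and 16.6 CPM (1.02). The catalytic subunit gene Gclc had -0.42. Slc7a11, the cystine importer, was lower in TAC at 26.8 CPM than in Sham at 88.3 CPM (-1.72), and stood at 82.4 CPM in TAC+ART, a log2 ratio of 1.62 over TAC. Slc40a1, the iron exporter ferroportin, had 0.84 over TAC, Mtf1, the metal-responsive factor of the metallothionein genes, -0.54 (-0.79 to -0.29), and Hmox1, haem oxygenase 1, -0.68.

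Among inducing cytokines, receptors and factors, 7 of 19 measured genes were higher and 3 lower in TAC over Sham. Nfkb2, which encodes an NF-kB subunit, had a log2 ratio of 1.55, and Nfkbia, which encodes the inhibitor IkB-alpha, 1.45. The cytokine receptor genes Lifr and Cntfr were lower in TAC at -1.11 and -1.51. In TAC+ART over TAC, 1 of 19 was higher and 5 were lower: Lifr had 0.75 and Cntfr 0.34, while Cebpb, a C/EBP factor of the acute phase, had -1.07 and Bcl3, an NF-kB cofactor, -1.41. Of the glucocorticoid responsive genes measured, 5 of 15 were higher and 2 lower in TAC over Sham, and 2 of 16 higher and 3 lower in TAC+ART over TAC. Ddit4, an inhibitor of mTORC1, had 2.16 and -0.85 in those comparisons, and Hsd11b1, which regenerates active glucocorticoid, had -1.63 and 1.40. Cdkn1a, a cell cycle inhibitor, had 1.44 and Hif3a -0.66 over Sham, and over TAC Hif3a had 1.22 and Errfi1, which restrains signalling by EGF receptors, -2.09.

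Of 4 receptors and carriers of the members measured, 1 was higher and 0 lower in TAC over Sham. Scarb1, a lipoprotein receptor that also takes up serum amyloid A, had 0.89, Lrp1, a broad uptake receptor, 0.49, Tlr4, the lipopolysaccharide receptor that works with MD2, -0.04 (-0.20 to 0.12), and Slc22a17, a lipocalin 2 receptor, -0.17. In TAC+ART over TAC 1 of 6 was higher, Cd163, the haptoglobin-haemoglobin receptor of macrophages, at 0.65, and 1 was lower, Tlr2, at -0.63. Tlr4 had 0.09 (-0.04 to 0.22) and Scarb1 -0.45. The macrophage list summed to 253, 265 and 125 CPM in fibroblast-like cells of TAC+ART, TAC and Sham, and its part in the Cd163 value was not tested.

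**Figure D5:**
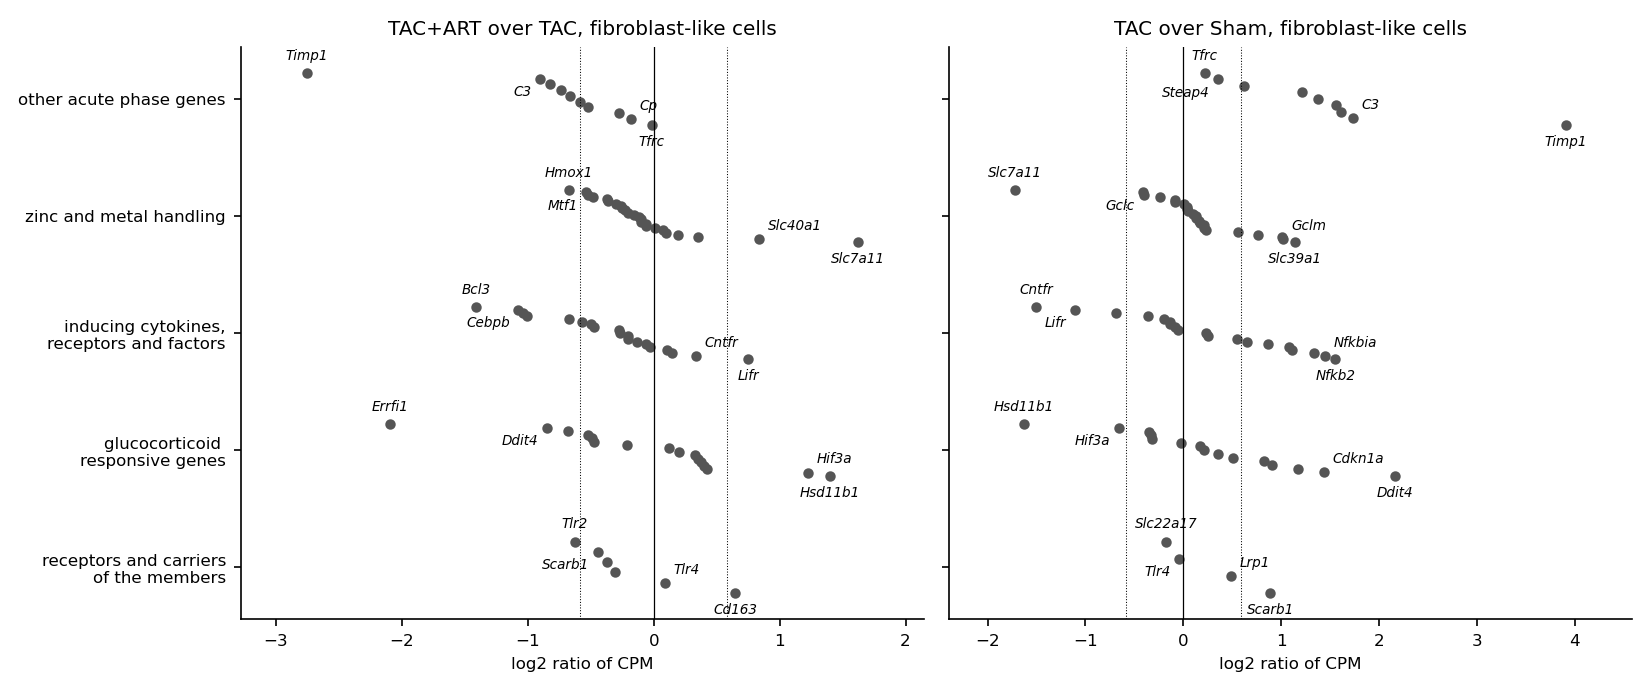
log2 ratios of CPM in fibroblast-like cells for genes of 5 lists with at least 100 UMIs, TAC+ART over TAC on the left and TAC over Sham on the right. Each point is 1 gene, named genes are the 2 highest and 2 lowest of a list, and dotted lines mark 1.5-fold. All 9 measured acute phase genes lie right of 0 in TAC over Sham, led by Timp1 at 3.91, and all 10 lie left of 0 in TAC+ART over TAC.

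In cardiomyocyte-like cells 5 of 6 measured acute phase genes were higher in TAC over Sham (27.8% of all genes were) and 5 of 7 lower in TAC+ART over TAC (17.8%). Trf, the iron carrier transferrin, had 2.84 and C3 2.76 over Sham, against 0.70 for Cp and 0.12 for Tfrc. Over TAC, Timp1 had -2.47 and C3 -1.15, while Cp had 0.14 and Tfrc -0.43. The fibroblast list summed to 2902 CPM in TAC+ART, 3443 CPM in TAC and 871 CPM in Sham in these cells, and its part in the values was not tested.

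The genes whose pattern was most like that of a member were sought by Pearson's r of log2(CPM + 1) over 21 points, 7 classes in 3 libraries, among 9990 genes. The points share libraries and depth, so r is only a description. For Mt1 they were Cryab, a small heat shock protein (0.96), Hspe1, the mitochondrial co-chaperonin (0.96), and Atp5g1, an ATP synthase subunit (0.95). For Mt2 they were Mrpl33 (0.83), Tnfrsf12a, the receptor of TWEAK (0.81), and Ahsa1, an HSP90 co-chaperone (0.80). For Slc39a14 they were Gm10135 (0.87), Kctd1 (0.85) and Gja1, connexin 43 (0.82), and for Serpina3n they were Thbs1, thrombospondin 1 (0.87), and Rexo2 (0.83). Between members r was 0.78 for Mt1 and Mt2, 0.66 for Serpina3n and Lcn2, and 0.62 for Mt2 and Serpina3n.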

How the data were processed

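The 3 libraries are 10x Genomics droplet libraries. Raw counts of UMIs, a gene-by-barcode matrix per library, were deposited by the authors; Cell Ranger, Seurat and the mm10 build are named in the submitters' processing notes, with no versions. Members and gene lists were chosen with earlier results of these data known. Barcodes under 500 UMIs or 300 genes, or over 10% mitochondrial UMIs, were dropped (3 of 18021), and simulated doublets marked 0.8% per 1000 barcodes for removal, leaving 17090 cells. A cell entered a class when its marker score (0 for the median cell, 1 for the top 20 cells) reached 0.2 and exceeded the next class by 0.1. This gate was chosen after seeing the data, and left out the genes of fibrillar collagens I and III, which differ between libraries. The fibroblast marker sums, and the shares and mixes drawn from them, do include Col1a1, Col1a2 and Col3a1. Counts were summed per class, with 0.5 added to each sum for log2 ratios, and intervals are exact (Poisson, conditional binomial, Clopper-Pearson). Calls are 2-fold for members with 20 UMIs, and 1.5-fold for list genes with 100 UMIs. Named list genes are the 2 highest and 2 lowest ratios with 100 UMIs; similar genes are the 3 of highest r, for members with 1000 UMIs, of which 1 is not reported here. The ratios were tried on simulated Poisson counts, which hold counting error but no spread between cells, hearts or libraries. Alternatives were TMM factors (edgeR 4.0.16), Leiden clusters (scanpy 1.11.5, leidenalg 0.10.2), a stricter gate, doublets kept, depth limits, thinning, other totals, other minimums and equal weight per cell. The sources used here do not say whether cells or nuclei were loaded, or how reads shared between genes were counted. Intervals cover counting error only, not PCR error or differences between hearts.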

Additional observations from a re-analysis of the deposited data

How the results depend on the processing

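No paired analysis was possible because each group is 1 library. The counts of members past 2-fold in fibroblast-like cells stayed within 1.5 times under every alternative. With a minimum of 100 UMIs, though, Lcn2 and Hp dropped out of the fibroblast-like counts of both comparisons. With no minimum of UMIs the cardiomyocyte-like counts were 5 higher in TAC over Sham and 6 lower in TAC+ART over TAC, the macrophage-like count lower in TAC+ART over TAC was 5, and the pericyte-like count higher in TAC over Sham was 5. With a minimum of 100 UMIs the pericyte-like counts were 1 higher and 0 lower. With barcodes thinned to 1000 UMIs the endothelial-like counts were 3 higher and 2 lower and the pericyte-like counts 1 higher and 0 lower; fewer members reach 20 UMIs there. In barcodes of at most 8000 UMIs the cardiomyocyte-like count lower in TAC+ART over TAC was 1, and the cause was not tested. In the 5 classes, no member ratio or count reversed for TAC+ART over TAC or for TAC over Sham, nor did a fibroblast-like list count. Endocardial- and lymphatic-like values, TAC+ART over Sham and cardiomyocyte-like lists were not rerun. A limit of at least 2000 UMIs per barcode, chosen after seeing the data, moved none of these counts by over 1.5 times. TMM factors shifted all log2 ratios of cardiomyocyte-like cells by 0.14 for TAC+ART over TAC and by -0.18 for TAC over Sham, and those of macrophage-like cells by 0.11 for TAC over Sham. Over these alternatives 443 member ratios stayed within their counting interval and 14 moved beyond it. Fibroblast-like list counts moved most with thinning: 8 moved by over 1.5 times and 12 did not, and the counts of zinc and glucocorticoid genes higher in TAC over Sham were 2 each.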
